A study of Ovis aries with 4 samples.

Results

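The heat shock proteins, DNAJ proteins and chaperonin genes of the day 14 sheep conceptus were taken by name from a table of 25197 features. The rule kept 84 of them: features whose name begins with HSP, DNAJA, DNAJB or DNAJC followed by a number or letter, the CCT genes, TCP1, BAG1 to BAG6, AHSA1 and STIP1, with numbered copies included. Total RNA depleted of ribosomal RNA was sequenced from 4 conceptuses, each flushed from a different Columbia and Rambouillet crossbred ewe on day 14 of pregnancy. A conceptus comprises the embryo and its membranes, and at this stage it is mostly trophectoderm. No conceptus was treated, so all 4 form 1 group and the data give levels and their spread between animals. They are called conceptus 1 to conceptus 4, and the numbers carry no order.

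Values are RPKM, reads scaled by transcript length and library size, and levels are compared between genes on that scale. The RPKM of a library summed to between 454387 and 522308, and Pearson's r between libraries, taken across features after log2(RPKM + 1), was 0.982 to 0.990. Read counts were not used here, so absolute depth is unknown. Depth was estimated from features above 0 in exactly 2 libraries, conceptus 1 and 1 other, by their most common ratio. It put the libraries at 0.669 to 1.06 of the depth of conceptus 1. These values are rough, since only 31.6% to 37.9% of the features used lay near the common ratio. Of 9 trophectoderm markers 8 were measured, and all 8 had a mean of at least 1 RPKM. Of 6 leukocyte markers 5 averaged under 1 RPKM. Of 6 blood and endothelium markers 3 were measured, CDH5, KDR and VWF, and all 3 averaged under 1 RPKM. The listed haemoglobin genes were not among those measured. Of the endometrium markers 2 of 8 and of the epiblast markers 2 of 5 averaged 1 RPKM or more. LGALS15 made up 90.7% to 98.97% of the endometrium sum of 84.2 to 100.4 RPKM and LIN28A 97.6% to 99.5% of the epiblast sum of 191 to 226 RPKM. The other endometrium marker averaging 1 RPKM or more was GRP, at 5.78, 0.3, 0 and 1.68 RPKM. The other such epiblast marker was POU5F1, at 4.14, 1.58, 0.83 and 1.77 RPKM. PGR and DPPA3 were listed at 0 in all 4 conceptuses, and NANOG and SOX2 were under 1 RPKM. In such whole-conceptus RNA, fewer cells of a type and less RNA per cell cannot be told apart.

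Molecular chaperones bind unfolded or partly folded proteins and let them reach their native form. HSP70 proteins work with DNAJ partners, which deliver clients and trigger ATP hydrolysis, and with exchange factors such as the BAG proteins, which release the nucleotide. HSP90 acts later on near-native clients such as kinases and hormone receptors, the ring-shaped CCT chaperonin folds actin and tubulin, and the endoplasmic reticulum (ER) and the mitochondrion have HSP70 and HSP90 proteins or chaperonins of their own. Many of these genes are active in any growing cell, whereas a few are classically switched on by heat or misfolded protein. Ruminant trophectoderm at this stage elongates and secretes interferon tau.

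The 84 genes were mostly expressed, and HSP90AB1, HSPA5 and HSPA8 had the highest means. Averaged over the conceptuses, 65 of 84 members were at 1 RPKM or more, 54 at 5 RPKM or more and 16 at 100 RPKM or more. These counts are 77.4%, 64.3% and 19.05% of the members, against 52.9%, 35.2% and 3.01% of the 15226 features with a symbol. The median of the member means was 15.1 RPKM, against 1.43 RPKM for features with a symbol. Together the members held 1.80%, 2.17%, 1.74% and 1.62% of the summed RPKM of conceptuses 1 to 4, a mean of 1.83 ± 0.236% (SD, n = 4). The HSP90 genes held 0.651 ± 0.152%, the HSP70 genes 0.450 ± 0.0324%, the CCT subunits 0.300 ± 0.0308% and the mitochondrial HSP60 and HSP10 features 0.143 ± 0.0335%. The DNAJA, DNAJB and DNAJC genes, 39 of the 84, together held less than the 6 CCT features, at 0.0599 ± 0.0102%, 0.0430 ± 0.00548% and 0.117 ± 0.0117%.

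**Figure D1:**
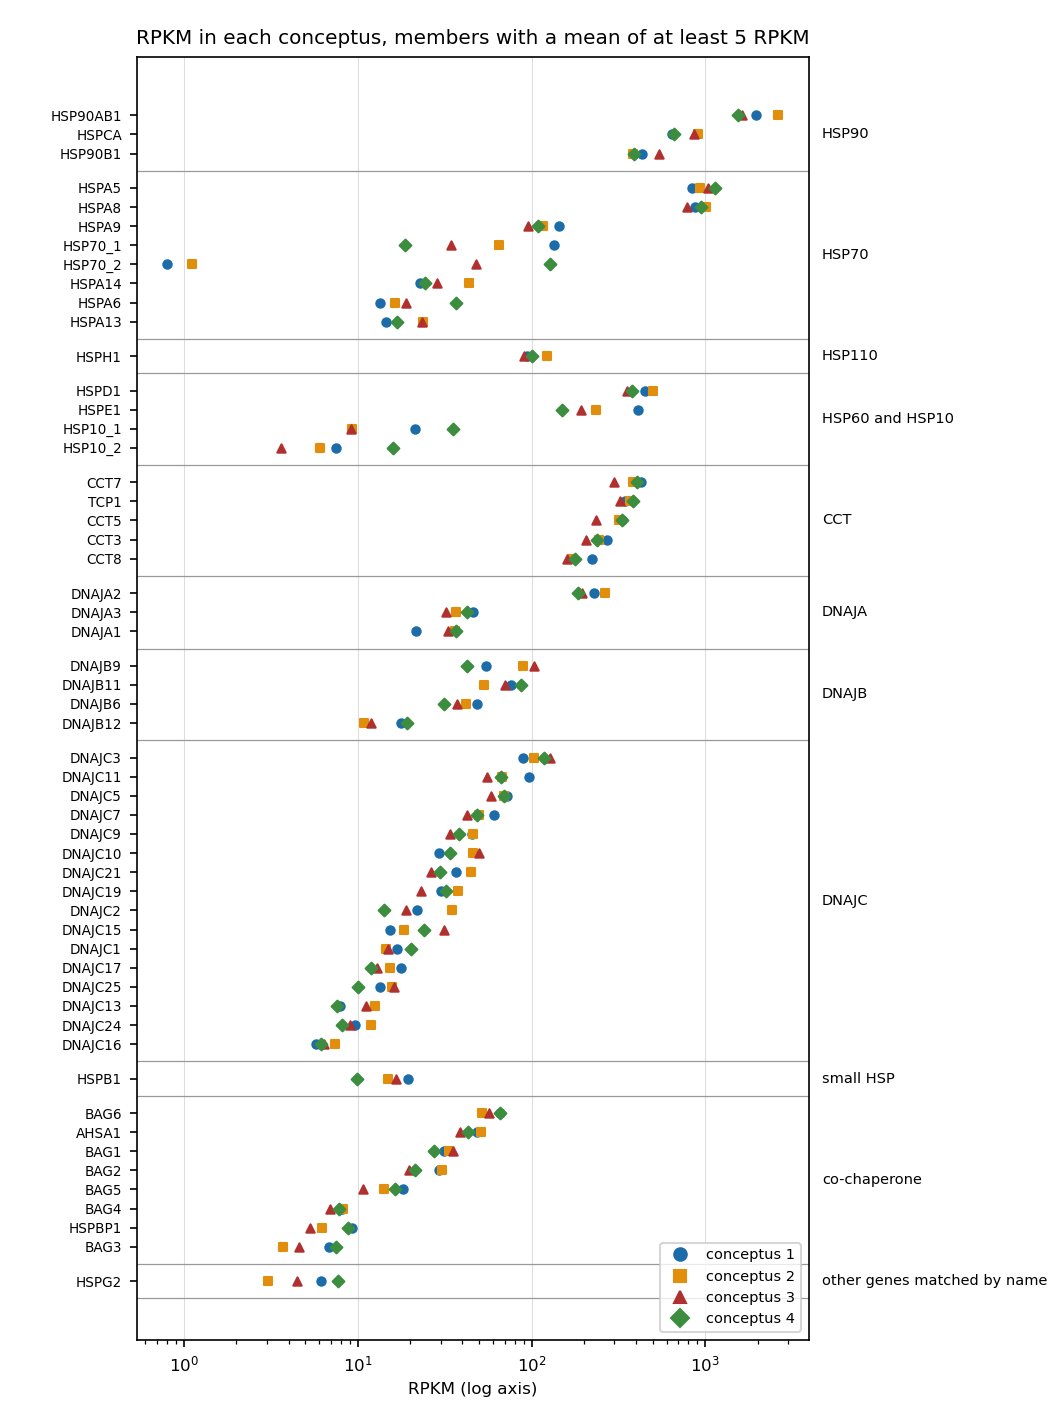
RPKM of the 54 members averaging 5 RPKM or more, on a log axis, with 1 symbol for each of the 4 conceptuses and genes grouped by class. HSP90AB1 lies highest, between 1533 and 2617 RPKM, and the 4 values of most genes lie close together, except for HSP70_2 between 0.8 and 128 RPKM.

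Among the HSP90 genes, the cytosolic forms led. HSP90AB1, the constitutive cytosolic HSP90, ranked 23 of all features and was at 1958, 2617, 1632 and 1533 RPKM in conceptuses 1 to 4. HSPCA, an older name of HSP90AA1, the cytosolic form that stress induces, was at 644, 902, 855 and 664 RPKM. The constitutive form exceeded the inducible one in each conceptus, and the ranges of the 2 genes did not overlap. HSP90B1, the ER form known as GRP94, was at 433, 382, 540 and 390 RPKM, below every HSPCA value.

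The HSP70 class held both very abundant and nearly silent genes. HSPA5, the ER form known as BiP, was at 837, 930, 1040 and 1136 RPKM, and HSPA8, the constitutive cytosolic form, at 877, 1006, 779 and 945 RPKM. Their ranges overlapped, so these data do not order them. HSPA9, the mitochondrial form that pulls imported proteins into the matrix, was at 143, 117, 95.9 and 109 RPKM. HSPA14, a ribosome-associated form, averaged 29.9 ± 9.48 RPKM (SD, n = 4), and HSPA13, a microsomal form, was at 14.6, 23.8, 23.4 and 16.7 RPKM. HSPA6, strictly stress-inducible in human cells, was at 13.4, 16.5, 18.95 and 36.9 RPKM, highest in conceptus 4. HSPA2 and HSPA1L, known from the male germ line, lay far below every other HSP70 gene named so far. HSPA2 was at 2.81, 2.89, 2.78 and 2.36 RPKM, HSPA1L at 0.86, 0.77, 1.38 and 1.13 RPKM, and HSPA12A and HSPA12B were under 1 RPKM. HSPH1, of the HSP110 class that exchanges the nucleotide on HSP70, was at 93.9, 122, 90.0 and 100.6 RPKM, while its relative HSPA4L was at 0.18, 0.24, 0.21 and 0.14 RPKM. HSPA4, of the same class, was not analysed here.

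Among members averaging 5 RPKM or more, the highest ratios between conceptuses were those of the numbered copies of HSP70. HSP70_1 was at 134, 65.2, 34.5 and 18.8 RPKM in conceptuses 1 to 4. HSP70_2 was at 0.8, 1.12, 47.9 and 128 RPKM. The order of the conceptuses was reversed between the copies. HSP70_2 held 0.594% and 1.69% of the RPKM of the copies in conceptuses 1 and 2, and 58.1% and 87.1% in conceptuses 3 and 4. Their sum, at 135, 66.3, 82.4 and 146 RPKM, varied far less, with the highest conceptus 2.21 times the lowest, against 7.11 times for HSP70_1 and 160 times for HSP70_2. The table gives neither copy a symbol or description, and RefSeq lists HSP70 as a synonym of the sheep gene HSPA1A, the classical inducible HSP70 of the cytosol. Mammals carry near-identical neighbouring copies of this gene, so how the authors' counting divided shared reads between the copies is uncertain, and the value of either copy alone is uncertain with it. Among features averaging 5 RPKM or more, the highest conceptus was over 4 times the lowest in 5 of 36 numbered copies that are not members, against 142 of 6334 features that are not numbered copies. How far shared reads account for either count was not tested.

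**Figure D2:**
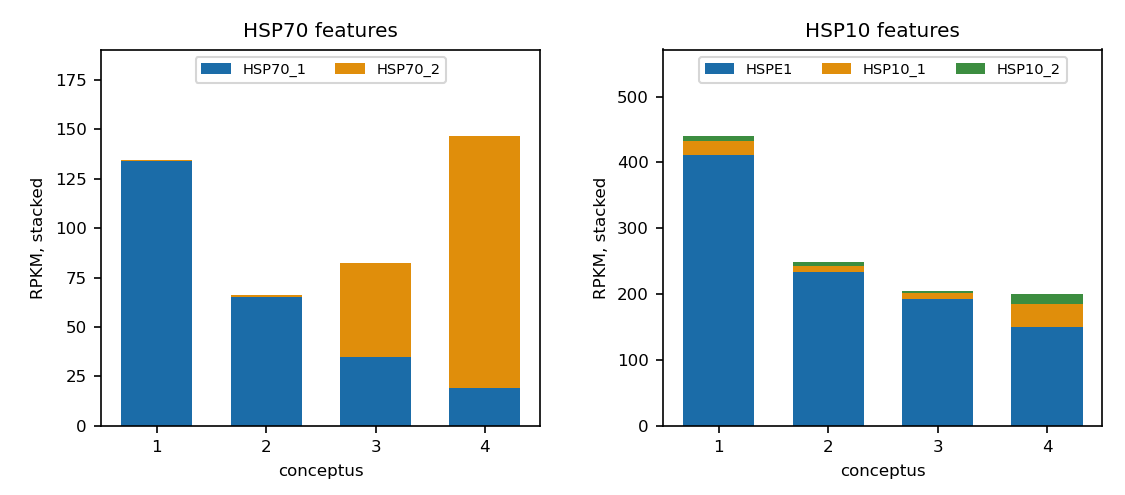
RPKM of the HSP70 features (left) and the HSP10 features (right) stacked for each conceptus. The HSP70 bars reach 66.3 to 146 RPKM, nearly all HSP70_1 in conceptuses 1 and 2 and mostly HSP70_2 in conceptuses 3 and 4; HSPE1 forms most of each HSP10 bar.

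The mitochondrial chaperonin is a barrel of HSPD1 (HSP60) closed by a lid of HSPE1 (HSP10). HSPD1 was at 449, 502, 353 and 378 RPKM, and HSPE1 at 411, 234, 193 and 149 RPKM. HSPE1 stood apart in conceptus 1, where it nearly equalled HSPD1. The ratio of HSPD1 to HSPE1 was 1.09 there, against 2.15, 1.83 and 2.53 in the others. The 2 further HSP10 features, which carry no description, were much lower: HSP10_1 at 21.4, 9.25, 9.19 and 35.4 RPKM and HSP10_2 at 7.52, 6.03, 3.61 and 15.9 RPKM, both highest in conceptus 4, where HSPE1 was lowest. With them added, the HSP10 sum was 440, 249, 205 and 201 RPKM. HSP10 features may share reads as the HSP70 copies may, so the split between them is uncertain.

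Of the 8 subunits of the CCT ring, 5 were measured, and they were abundant and even. CCT7 averaged 379 ± 56.7 RPKM, TCP1 354 ± 26.6, CCT5 304 ± 46.7, CCT3 240 ± 26.1 and CCT8 182 ± 27.5 RPKM (SD, n = 4). Each overlapped in range with the next, and within a conceptus the highest subunit was 2.12 ± 0.174 times the lowest. CCT8 was the lowest subunit in each of the 4 conceptuses, at 222, 170, 159 and 178 RPKM. TCP1 was the steadiest, at 344, 368, 322 and 382 RPKM. In conceptus 3 all 5 subunits had their lowest value: CCT7 was at 428, 385, 298 and 405 RPKM in conceptuses 1 to 4, CCT5 at 332, 317, 235 and 332 RPKM, and CCT3 at 270.5, 245, 207 and 238 RPKM. CCT6B, an isoform of testis in other mammals, was listed at 0 in all 4 conceptuses, and CCT2, CCT4 and CCT6A were not analysed here.

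DNAJ proteins are the partners that set HSP70 to work. Among the DNAJA genes, whose products resemble bacterial DnaJ most, DNAJA2 was at 229, 263, 194 and 184 RPKM. DNAJA1, like DNAJA2 a cytosolic co-chaperone, was at only 21.6, 36.3, 33.1 and 36.8 RPKM, and the mitochondrial DNAJA3 at 46.0, 36.9, 32.1 and 42.4 RPKM. DNAJA2 exceeded both in every conceptus with no overlap. DNAJA4 was at 0.543 ± 0.0750 RPKM. DNAJB1, the classical inducible partner of HSP70, was not analysed here.

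The most abundant DNAJB and DNAJC genes included several partners of BiP in the ER. DNAJC3, a luminal co-chaperone of BiP also called P58IPK, was at 88.9, 103, 128 and 118 RPKM. DNAJB11, which binds unfolded secretory proteins, was at 76.1, 53.2, 70.6 and 86.5 RPKM, and DNAJB9, a co-chaperone induced by the unfolded protein response, at 54.7, 89.3, 103 and 42.5 RPKM. These 2 genes had nearly the same mean, but DNAJB9 was highest in conceptuses 2 and 3, where DNAJB11 had its lowest values. In conceptus 3, however, DNAJB11 was close to its mean of 71.6 RPKM. DNAJC10, a disulfide reductase that works with BiP, was at 29.5, 45.9, 49.9 and 33.8 RPKM. The remaining ER members of both families lay lower, from DNAJC1 at 16.6 ± 2.56 and DNAJB12 at 14.96 ± 4.19 down to DNAJC18 at 3.09 ± 0.684 RPKM. All 13 ER members averaged 1 RPKM or more, as did all 10 mitochondrial ones, against 36 of 47 in cytosol and nucleus.

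Outside the ER, DNAJC11, a mitochondrial protein of the cristae-organising complex, led the DNAJC genes at 96.3, 67.5, 55.6 and 66.4 RPKM. DNAJC5, the cysteine string protein of secretory vesicles, followed at 67.3 ± 6.04 RPKM, the HSP70 and HSP90 adaptor DNAJC7 at 50.4 ± 7.41, and the histone chaperone DNAJC9 at 40.98 ± 5.77 RPKM. Of the ribosome-linked genes, DNAJC21 was at 34.5 ± 8.10 RPKM and DNAJC2 at 21.9, 34.9, 18.95 and 14.1 RPKM, highest in conceptus 2. DNAJC19 and DNAJC15, both of the mitochondrial import motor, were at 30.7 ± 5.99 and 22.3 ± 7.02 RPKM. DNAJB6, which holds back aggregation, was the only cytosolic DNAJB gene above 5 RPKM, at 39.7 ± 7.27 RPKM. Under 1 RPKM were 6 DNAJC genes, 1 DNAJB and 1 DNAJA gene. They included DNAJC8, DNAJC5G, DNAJC12 and the auxilin DNAJC6, a clathrin-uncoating factor of neurons. DNAJC5B and DNAJB13 were listed at 0 in all 4 conceptuses. A listing at 0 is not read as absence.

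Small heat shock proteins, which hold unfolded clients without ATP, were sparse. HSPB1 was at 19.5, 14.9, 16.6 and 9.92 RPKM and HSPB8 at 4.04, 5.43, 4.42 and 3.77 RPKM, while HSPB3, HSPB6, HSPB7 and HSPB9 were all under 1 RPKM. All 8 co-chaperones measured averaged 5 RPKM or more. BAG6, which guards newly made membrane proteins, was at 65.9, 51.9, 57.1 and 66.0 RPKM, and AHSA1, the activator of the HSP90 ATPase, at 48.8, 51.0, 39.0 and 43.1 RPKM. BAG1 averaged 31.9 ± 3.41, BAG2 25.3 ± 5.46, BAG5 14.8 ± 3.24, BAG4 7.78 ± 0.576 and HSPBP1, an exchange factor of HSP70, 7.42 ± 1.90 RPKM (SD, n = 4). BAG3, a stress-inducible partner of HSPB8 in selective autophagy, was the lowest at 6.80, 3.74, 4.57 and 7.51 RPKM. STIP1, which links HSP70 to HSP90, was not analysed here.

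The name rule also caught 4 genes that are not chaperones or whose role differs. HSPG2 encodes perlecan, a basement membrane proteoglycan, and was at 6.18, 3.04, 4.49 and 7.70 RPKM. HSPBAP1 was at 0.57, 1.15, 0.67 and 0.58 RPKM, HSPB11, a part of the intraflagellar transport machinery, at 0.348 ± 0.230, and CCT8L2, an intronless relative of CCT8, at 0.0575 ± 0.0591 RPKM. Without these 4, the remaining 80 members held 1.83 ± 0.236% of the summed RPKM.

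Genes that work with these chaperones but do not match the name rule were mostly expressed as well. For comparison, 52.9% of the features with a symbol averaged 1 RPKM or more and 35.2% averaged 5 RPKM or more. Of the HSP90 co-chaperones 14 of 15 listed were measured, and all 14 averaged 1 RPKM or more. PTGES3, the p23 protein that binds closed HSP90, averaged 319 ± 60.5, FKBP4 223 ± 25.5, NUDC 146 ± 49.5 and the kinase adaptor CDC37 105 ± 29.7 RPKM. PTGES3 and FKBP4 were highest in conceptus 2, as HSP90AB1 was, at 387 and 240.3 RPKM, while NUDC and CDC37 were highest in conceptus 1, at 205 and 132 RPKM. All 10 measured prefoldin and tubulin cofactor genes, which hand clients to CCT or process its products, and all 11 mitochondrial chaperones and proteases averaged 5 RPKM or more, among them TRAP1, the mitochondrial HSP90, at 61.5 ± 10.4 RPKM. Among 11 measured HSP70 partners, 9 averaged 1 RPKM or more. HYOU1, an exchange factor of BiP, was the highest of them at 109 ± 12.7 RPKM, and SDF2L1 averaged 0.473 ± 0.311 RPKM. The heat shock transcription factors measured were low: HSF2 at 1.62 ± 0.619 RPKM, with HSF4 and HSF5 under 1 RPKM. HSF1 was not analysed here, so the class as a whole is not described. HSBP1, a small protein that binds heat shock factor, was at 51.9 ± 14.4 RPKM.

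For 14 of 18 listed pairs of related genes, log2(RPKM + 1) was subtracted within each conceptus. The largest differences were between constitutive and testis-type HSP70 genes: HSPA8 exceeded HSPA1L by 8.80 ± 0.330 and HSPA2 by 7.92 ± 0.196 (SD, n = 4). With a pseudocount of 0.1 these became 9.66 and 8.32. HSPA5 exceeded HSPA13 by 5.60 ± 0.344, BAG6 exceeded BAG3 by 3.24 ± 0.236, and DNAJA1 was below DNAJA2 (log2 difference −2.75 ± 0.458). The differences of the remaining pairs were smaller. HSPD1 exceeded HSPA9 by 1.85 ± 0.190 and HSPE1 by 0.86 ± 0.522, HSPB1 exceeded HSPB8 by 1.56 ± 0.379, DNAJC3 exceeded DNAJC10 by 1.45 ± 0.271, HSP90AB1 exceeded HSPCA by 1.32 ± 0.311 and HSPA8 by 1.07 ± 0.284, and HSPA5 exceeded HSP90B1 by 1.18 ± 0.288. TCP1 exceeded CCT5 by 0.23 ± 0.166, with 0.05 in conceptus 1. DNAJB11 and DNAJB9 did not differ beyond their spread, at 0.05 ± 0.828, with 2 conceptuses on each side. The other 13 pairs kept 1 sign throughout, in 4 of 4 conceptuses. Each of the 13 had p = 0.125 in an exact sign-flip permutation test (two-sided), the smallest that 4 conceptuses allow, and 0.135 after Benjamini-Hochberg adjustment over the 14 pairs. DNAJB11 and DNAJB9 had p = 1 in the same exact test.

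**Figure D3:**
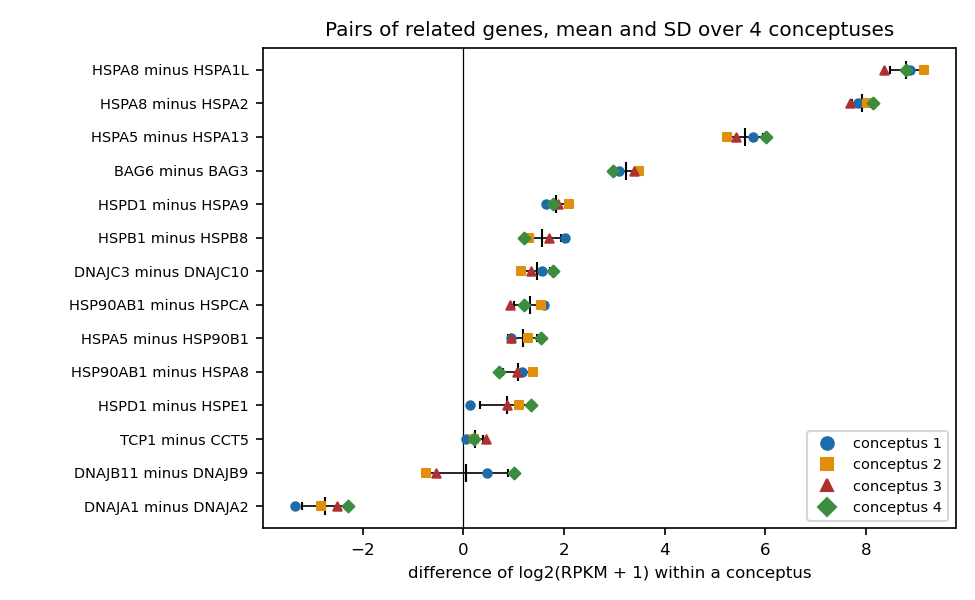
Difference of log2(RPKM + 1) between the members of each pair within a conceptus, first gene minus second, with 1 symbol for each conceptus and a black mark and bar for mean and SD over 4 conceptuses. All pairs but DNAJB11 and DNAJB9 lie on 1 side of 0, from −2.75 for DNAJA1 minus DNAJA2 to 8.80 for HSPA8 minus HSPA1L.

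The spread of the members between conceptuses was close to that of all features, apart from the numbered copies. Of the 54 members averaging 5 RPKM or more, 11 had a highest conceptus over 2 times the lowest, or 20.4%, against 21.9% of all 6374 such features. Leaving out conceptus 1, 2, 3 or 4 gave 9, 8, 10 or 6 such members, as fewer samples span a smaller range. The same counts over all features were not taken. The median coefficient of variation was 18.9%, against 20.5% for all features. The steadiest members were BAG4 at 7.40% and TCP1 at 7.51%. Over 3 times were 4 members (7.41%), against 5.04% of all features, and 3 (5.56%) were over 4 times, against 2.35%. The 4 over 3 times were the numbered copies HSP70_1, HSP70_2, HSP10_1 and HSP10_2. HSP70_2 had the second highest ratio of all 6372 features with no value of 0. Just below these 4 came HSPE1 at 2.752 and HSPA6 at 2.749 times.

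**Figure D4:**
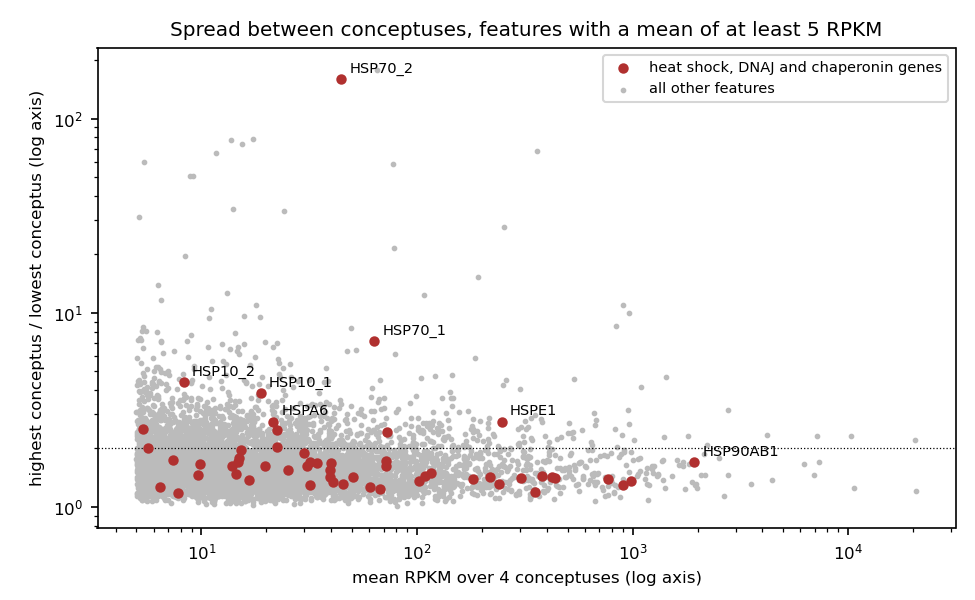
Highest conceptus over lowest conceptus against mean RPKM, both on log axes, for the 54 members (red) and all other features (grey) averaging 5 RPKM or more. The 2 features with a value of 0 are not drawn. The dotted line marks a ratio of 2, and 11 of the 54 members lie above it, HSP70_2 highest at 160.

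The variance of each feature on the log2(RPKM + 1) scale was set against the trend of all 9602 features averaging 1 RPKM or more, using limma. No feature was called at an adjusted p under 0.05 (0% of features), and 466 (4.85%) had an unadjusted p under 0.05. Among the 65 members tested, 4 had an unadjusted p under 0.05, again the numbered copies. For HSP70_2 the Benjamini-Hochberg adjusted p by limma was 0.0882. Over the alternatives it lay between 0.0112 and 0.377. HSP70_2 was called without conceptus 1, 3 or 4 (0.115%, 0.0415% and 0.0732% of all features called) and with the libraries rescaled to the same sum (0.0417%), but not without conceptus 2 (adjusted p 0.0519). It was also not called by limma with a pseudocount of 0.1 (adjusted p 0.099) or a filter at a mean of 5 RPKM (0.0611). With no filter beyond a value above 0 the adjusted p by limma was 0.377. HSP70_1 had an adjusted p of 0.971 by limma. The mean of HSP70_2 was 44.4 RPKM, and 16.6 RPKM without conceptus 4; that of HSP70_1 was 63.1 RPKM, and 39.5 RPKM without conceptus 1.

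The conceptus with the highest or lowest value was not the same for each chaperone compartment. Among members averaging 5 RPKM or more, conceptus 3 had the highest value for 5 of 11 ER genes and the lowest for 0 of them, whereas it had the highest value for 14.4% and the lowest for 31.2% of all features. The 5 were HSP90B1, DNAJC3, DNAJB9, DNAJC10 and DNAJC25. HYOU1, a BiP partner outside the name rule, was at 97.0 RPKM in conceptus 3, its lowest value. Conceptus 1 departed as well, with the highest value for 0 of 11 ER genes and the lowest for 5. Of all features, 33.9% were highest and 16.8% lowest in conceptus 1. Rescaled to the same sum, these ER counts were unchanged, against 32.0% and 17.3% of all features. Conceptus 3 had the lowest value for 5 of 5 CCT subunits and 7 of 9 mitochondrial genes. Without HSP10_1 and HSP10_2, whose split with HSPE1 is uncertain, the mitochondrial count was 5 of 7, and the HSP10 sum was lowest in conceptus 4. In cytosol and nucleus it was 15 of 30, and 10 of 25 without CCT. The median deviation of a gene from its own mean in conceptus 3, on the log2(RPKM + 1) scale, was 0.23 for ER genes, −0.27 for mitochondrial genes and −0.21 for CCT, against −0.08 for all features.

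Scaling moved several of these counts. With the libraries rescaled to the same sum, conceptus 3 was highest for 5 and lowest for 1 of the 11 ER genes. It was lowest for 5 of 5 CCT subunits and for 6 of 9 mitochondrial genes. Of all 6374 features, it was highest for 1061 and lowest for 1721. For cytosol and nucleus the rescaled count of genes lowest in conceptus 3 was 12 of 30. Without CCT it was 7 of 25, close to the share of all features lowest there. Conceptus 2 was the lowest for 7 of 54 members (12.96%), against 31.8% of all features, and rescaled for 5 (9.26%), against 24.7%. It was the highest for 18 of 54 (33.3%), against 26.2%, and rescaled for 23 (42.6%), against 34.8%. HSP90AB1, HSPCA, HSPA8 and HSPD1 were among these 18, whereas HSPE1, the lid of the HSPD1 barrel, was highest in conceptus 1. Of the HSP70 and HSP90 forms of other compartments, HSPA9 was highest in conceptus 1, HSP90B1 in conceptus 3 and HSPA5 in conceptus 4. Conceptus 1 was the highest for 15 of 54 members against 33.9% of all features and the lowest for 11 against 16.8%. Conceptus 4 was the highest for 14 against 25.5% and the lowest for 13 against 20.3%, but rescaled the highest for 9 against 16.6% and the lowest for 18 against 31.0%. These counts describe single animals, were chosen after the values were seen and carry no test.

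Cell type markers also varied between the conceptuses. The summed RPKM of the trophectoderm markers was 6169, 6199, 5335 and 8647 in conceptuses 1 to 4, of which KRT8 made up 93.3% to 95.5%, and the other 7 summed to 412, 352, 352 and 390 RPKM. The 9 extraembryonic endoderm markers summed to 896, 610, 712 and 624 RPKM. Of these 9, 4 averaged 5 RPKM or more (APOA1, DAB2, LRP2 and RBP4) and 4 averaged under 1 RPKM. The part of cell makeup in these patterns was not tested.

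**Figure D5:**
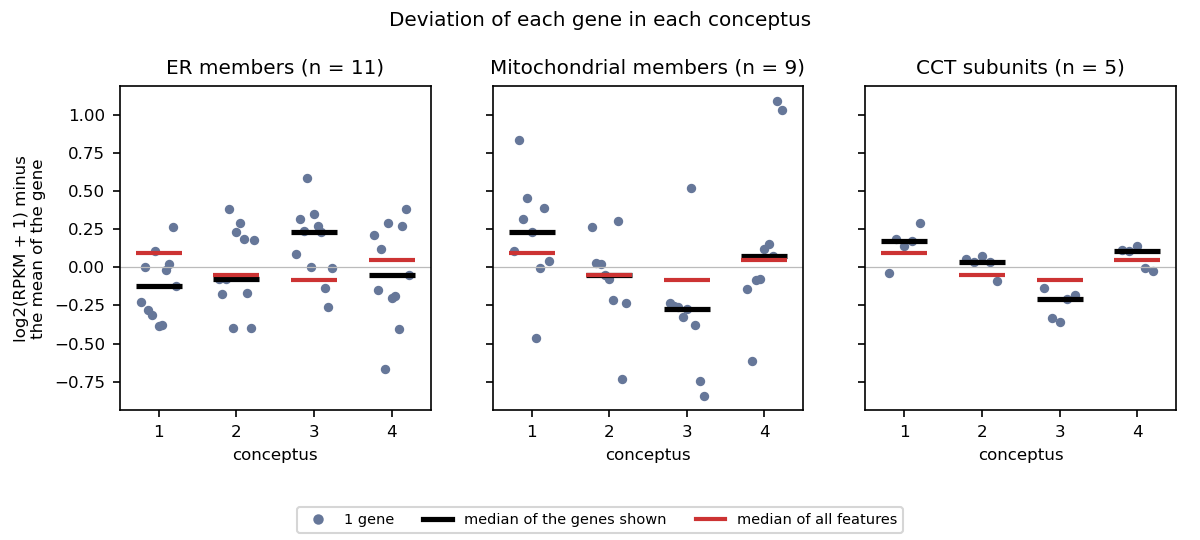
Deviation of log2(RPKM + 1) from the mean of the gene in each conceptus, for the ER members, the mitochondrial members and the CCT subunits averaging 5 RPKM or more. Points are genes, black bars the median of the genes shown and red bars the median of all 6374 features; in conceptus 3 the ER median lies at 0.23, the mitochondrial at −0.27 and the CCT at −0.21.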

How the data were processed

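The values are RPKM in a table deposited by the authors. The unit is named by the title of a second deposited table, whose 5527 features hold identical values. The submitters' processing notes name genome build Oar_v3.1. Libraries kept the strand and base calling used Torrent Suite 4.0.2, per the labels' protocols. Aligner, counter, annotation and whether counting used the strand were not given in the sources used here. Libraries ran 3 to a chip, per the labels' protocols, and which of them shared one is unknown. The members, classes and lists were chosen with earlier results of these data known; HSPCA, HSP10 and CCT8L2 were placed in classes after their names were seen. Of 84 members 76 match a RefSeq symbol of assembly ARS-UI_Ramb_v3.0, 2 a synonym and 6 neither. Genes given with all 4 values are the highest 2 of each class, both members of each pair, CCT subunits, members over 3 times between conceptuses and members past the variance test; others so given were chosen after their values were seen. For every feature averaging 1 RPKM or more, the variance of log2(RPKM + 1) was compared with the robust trended prior of limma 3.58.1 (R 4.3.3) in a one-sided F test for excess variance, p-values being adjusted by Benjamini-Hochberg (threshold 0.05); the script was tested on simulated data. Pairs were compared by an exact sign-flip permutation test. Alternatives were a pseudocount of 0.1, other filters, rescaling to equal sums and leaving out each conceptus. Python 3.11.15, numpy 2.4.6, pandas 2.3.3 and matplotlib 3.10.9 were used. The 4 conceptuses come from separate ewes. Without counts, no counting interval can be given.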

Additional observations from a re-analysis of the deposited data

Results flagged for a closer look

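In 3 of 90 sets of 4 values, 1 conceptus lay far from the other 3 by Dixon's criterion; chance alone flags about 1 set in 20, which is 4.5 of 90. For CCT5 it was conceptus 3, at 235 RPKM, with the other 3 conceptuses between 317 and 332 RPKM. The HSP110 genes held 0.0269% of the summed RPKM in conceptus 2, the conceptus in which HSPH1 was highest. The small heat shock genes held 0.00265% in conceptus 4, where HSPB1 and HSPB8 were lowest.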

How the results depend on the processing

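The variance test called 0 features and, without 1 conceptus, 0 to 11, and it called 4 with libraries rescaled to the same sum; the cause was not tested. Rescaling shifts conceptus 4 by −0.10 and conceptus 2 by 0.10 on the log2 scale. The count of members over 2 times between conceptuses was 11, and 6 to 10 without 1 conceptus, as fewer samples span a smaller range. The median of member means was 14.0 to 16.1 RPKM without 1 conceptus. Taking the 10 highest features of each library out of the sum raises every share by construction: to 2.29% for all members, 0.815% for HSP90, 0.565% for HSP70, 0.0264% for HSP110, 0.179% for HSP60 and HSP10, 0.375% for CCT, 0.0750% for DNAJA, 0.0540% for DNAJB, 0.147% for DNAJC, 0.00514% for small HSP, 0.0511% for co-chaperones and 0.00166% for the genes matched by name alone. DNAJB11 minus DNAJB9 changed sign without conceptus 1 (−0.09) and without conceptus 4 (−0.27), and lay between −0.27 and 0.31 over the conceptuses left out. Alternative values were held against 1 SD between conceptuses (levels and shares), 1.5 times (counts) or the side of 0 (pairs). Of 359 such values for 78 results, 336 stayed within these limits, 21 moved further and 2 changed sign. Leaving out 1 of 4 conceptuses cannot move the mean level of a gene or share of a class by 1 SD. Nor can it change the sign of a pair that kept 1 sign in 4 of 4 conceptuses. Such values could only stay, so for them the 336 are no measure of robustness. The 336 therefore include HSP70_2 at 16.6 RPKM without conceptus 4, against 44.4 RPKM. Likewise the 336 include HSP70_1 at 39.5 RPKM without conceptus 1, against 63.1 RPKM. They also include 15 members over 2 times when those averaging 1 RPKM or more are counted. No paired analysis was possible because the 4 conceptuses form 1 group with no other to pair it with; gene pairs were compared within each conceptus.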
